A study of Mus musculus with 6 samples.

Results

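The genes described here are 45 imprinted genes of the mouse and their cluster neighbours, read as probes of an array of whole embryonic lungs. Genes of the insulin-like growth factor system were left out of the set. The array held 45281 probes, of which the annotation used gave 99 to 40 of these genes. H19, Mirg, Snrpn, Airn and Zrsr1 had no probe under their own symbol in that annotation and were not analysed here. Of the 99 probes, 50 were detected on at least 3 of the 6 arrays, with a detection p under 0.01, and were tested, and they stood for 29 genes. The other 11 genes, Usp29, Zim1, Plagl1, Peg10, Sgce, Asb4, Calcr, Magel2, Slc38a4, Htr2a and Mcts2, had no probe that passed this filter: none was detected in any lung, with log2 signals of 4.24 to 5.25. The genes were chosen by their known imprinting, but with log2 fold changes of this same comparison in view, among them the rise of Kcnq1ot1, so the counts below describe the genes and test nothing about the set.

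Lungs were taken at embryonic day 18.5 from 3 R26Foxf1; Tie2-cre embryos and 3 control embryos. All 6 carried R26-LSL-Foxf1, a Foxf1 copy in the ROSA26 locus behind a stop cassette flanked by lox sites. In the R26Foxf1; Tie2-cre embryos the Tie2-cre transgene, active in endothelial and blood-forming cells, removes the cassette, and the control embryos kept it. Each lung gave 1 array, the labels call the lungs biological replicates, and they do not say which lungs shared a litter. The array measures RNA of a whole lung, so less RNA per cell and fewer cells of a type cannot be told apart. It also reads the RNA of both parental alleles together and says nothing of which allele a transcript came from. Values are log2 signals after background correction and quantile normalization, and a probe passed the threshold with a limma p, adjusted over all 20118 tested probes by the Benjamini-Hochberg method, under 0.05 together with a difference of 1.2-fold or more. Signals of different probes are not comparable with each other.

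Imprinted genes are expressed from the maternal or the paternal copy according to a methylation mark set in the egg or the sperm. They lie in clusters, in which a differentially methylated control region often governs a long noncoding RNA and the coding genes around it. Many act on the growth of the fetus and the placenta. In the fetal mouse several paternally expressed members promote growth and several maternally expressed members restrain it, and a group of them including Cdkn1c, Dlk1, Mest, Peg3, Grb10 and Plagl1 is high in fetal organs and declines after birth.

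Promoter sequences are shown for the 2 member genes with probes past the threshold, Kcnq1ot1 and Gnas, and for Snurf, whose RNA is made from the same start as Snrpn and which also had such a probe. Each is the 300-base window from 250 bases before to 50 bases after an annotated start, in RefSeq for GRCm38.p6, written 5′ to 3′ on the strand of the gene. Of the 45 member genes 38 had a window in that table. Capitals mark CCAAT (or its reverse complement ATTGG), the box bound by the factor NF-Y, and TGCCGC (or GCGGCA), the element that the imprint-protecting protein ZFP57 binds when methylated.
Kcnq1ot1, chr7:143296498-143296797, minus strand: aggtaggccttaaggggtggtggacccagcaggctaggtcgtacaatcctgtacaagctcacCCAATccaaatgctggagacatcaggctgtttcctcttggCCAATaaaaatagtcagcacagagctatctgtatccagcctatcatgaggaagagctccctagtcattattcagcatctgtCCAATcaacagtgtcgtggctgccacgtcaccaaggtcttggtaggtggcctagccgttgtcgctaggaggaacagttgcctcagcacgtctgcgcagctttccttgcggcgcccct
Gnas, most upstream start, chr2:174284070-174284369, plus strand: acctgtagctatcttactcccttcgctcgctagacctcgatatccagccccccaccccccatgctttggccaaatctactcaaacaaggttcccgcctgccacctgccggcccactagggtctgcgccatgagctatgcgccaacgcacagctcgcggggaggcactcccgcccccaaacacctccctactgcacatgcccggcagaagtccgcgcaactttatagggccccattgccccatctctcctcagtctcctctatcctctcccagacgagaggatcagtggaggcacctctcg
Gnas, middle start, chr2:174327499-174327798, plus strand: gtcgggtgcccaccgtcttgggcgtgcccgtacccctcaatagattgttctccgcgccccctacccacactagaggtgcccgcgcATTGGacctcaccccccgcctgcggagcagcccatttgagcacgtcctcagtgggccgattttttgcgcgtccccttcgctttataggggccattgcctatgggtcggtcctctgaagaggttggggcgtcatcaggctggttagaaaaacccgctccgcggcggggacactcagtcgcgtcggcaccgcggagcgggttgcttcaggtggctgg
Gnas, most downstream start, chr2:174329756-174330055, plus strand: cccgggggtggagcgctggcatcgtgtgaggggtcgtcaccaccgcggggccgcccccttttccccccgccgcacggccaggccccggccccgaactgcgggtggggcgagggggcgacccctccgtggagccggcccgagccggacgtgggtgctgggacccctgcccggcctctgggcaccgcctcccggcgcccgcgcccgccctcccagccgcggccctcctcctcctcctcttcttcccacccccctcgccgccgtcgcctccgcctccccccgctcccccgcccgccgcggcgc
Snurf, chr7:60005150-60005449, minus strand: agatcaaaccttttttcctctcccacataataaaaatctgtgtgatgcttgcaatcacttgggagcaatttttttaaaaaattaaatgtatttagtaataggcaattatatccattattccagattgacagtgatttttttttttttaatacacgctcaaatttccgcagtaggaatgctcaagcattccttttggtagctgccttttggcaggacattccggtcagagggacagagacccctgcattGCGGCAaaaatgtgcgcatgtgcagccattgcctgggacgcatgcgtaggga
The Kcnq1ot1 window held 3 CCAAT boxes, and it starts the long antisense RNA of the cluster inside the gene Kcnq1. Of all 32851 windows in the table, 37.4% held at least 1 CCAAT box on either strand and 3.37% held 3 or more. The Gnas window at the middle start held 1 CCAAT box, and the other Gnas windows shown held neither marked motif. The Snurf window held 1 TGCCGC, found in 11.6% of all windows. The forkhead core TGTTTA, or TAAACA on the other strand, was in none of the windows shown and in 13.4% of all windows. The CpG count was 9 in the Kcnq1ot1 window, 7 in that of Snurf, and 16, 27 and 40 from the most upstream to the most downstream Gnas window, against a median of 7 over all windows. A match of letters is a description of the window and not a binding site.

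Kcnq1ot1 RNA was higher in every R26Foxf1; Tie2-cre lung than in every control lung. This paternally expressed noncoding RNA (chromosome 7, 143213111 to 143296547, GRCm38.p6) silences its neighbours in cis on the paternal chromosome. Its signal was 8.23, 8.71 and 7.69 in control replicates 1 to 3 and 9.20, 9.34 and 9.75 in R26Foxf1; Tie2-cre replicates 1 to 3. The mean rose by 1.22 on the log2 scale (SE 0.26), 2.33-fold, and because this rise was known when the set was proposed it is given as a description with no p. Control replicate 3 was the lowest and R26Foxf1; Tie2-cre replicate 3 the highest, and with single lungs left out the difference ran from 0.96 to 1.47, at 0.96 without control replicate 3. The annotation gives this probe, ILMN_2445958, a gene symbol but no transcript accession. The other Kcnq1ot1 probe, ILMN_2656568, was detected in 2 of 6 lungs and not tested, with 5.01, 4.77 and 5.39 in control lungs and 5.46, 5.27 and 5.38 in R26Foxf1; Tie2-cre lungs. The groups overlapped on that probe. Kcnq1, the potassium channel gene in which Kcnq1ot1 lies, had 2 probes, and neither was detected in any lung.

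The 8 genes around Kcnq1ot1 listed as maternally expressed did not pass the threshold, and 7 of them had a higher and 1 a lower mean in R26Foxf1; Tie2-cre lungs. Which allele they use in fetal lung was not measured. Cdkn1c encodes the cell cycle inhibitor p57. Its signal was 13.96, 14.09 and 14.04 in control lungs and 14.10, 14.13 and 14.25 in R26Foxf1; Tie2-cre lungs. The groups did not overlap, but the difference was 0.13 (SE 0.10, limma adjusted p = 0.439). Phlda2, which restrains growth of the placenta, had 6.94, 6.69 and 6.98 in control and 6.80, 6.53 and 6.98 in R26Foxf1; Tie2-cre lungs. Its groups overlapped, and the difference was -0.10 (SE 0.15, limma adjusted p = 0.698). The transporter gene Slc22a18 differed by 0.11, the trophoblast regulator Ascl2 by 0.19, the tetraspanin gene Cd81 by 0.03, Osbpl5, which encodes an oxysterol-binding protein relative, by 0.26, and the histone chaperone gene Nap1l4 by 0.23, with limma adjusted p from 0.247 to 0.887. Tssc4 had 0.18 on its brighter and -0.06 on its other tested probe. Over the 9 genes of the cluster, by each gene's brightest tested probe, the median log2 difference was 0.18.

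**Figure D1:**
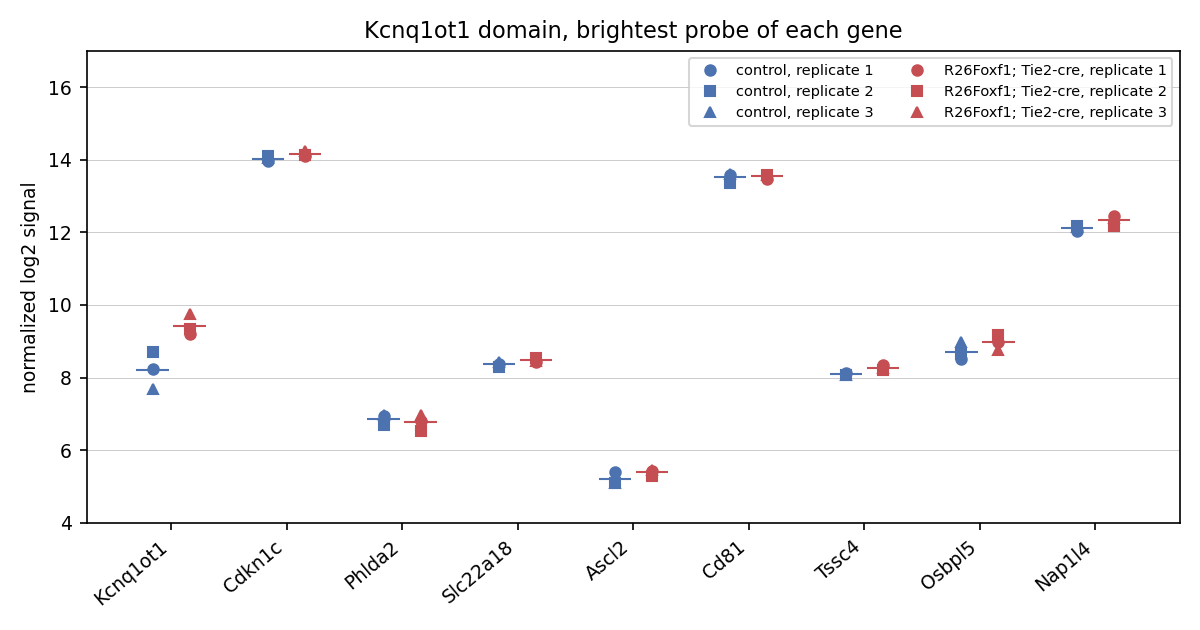
Normalized log2 signal (vertical axis) of the 9 genes of the Kcnq1ot1 cluster (horizontal axis), by the brightest tested probe of each gene. Points are single lungs, with a marker shape for each replicate number, and bars are the means of 3 lungs. The Kcnq1ot1 control lungs lie between 7.69 and 8.71 and the R26Foxf1; Tie2-cre lungs between 9.20 and 9.75, while no other gene of the cluster passed the threshold. Heights of different genes are not comparable.

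Of all 50 tested member probes, 3 passed the threshold, all higher in R26Foxf1; Tie2-cre lungs, which is 6% of them. Over the whole array 908 of 20118 probes did so (4.51%), 488 of them higher (2.43%) and 420 lower (2.09%). The 3 probes belonged to Kcnq1ot1, whose rise was known when the genes were chosen, and, 2 of them, to Gnas. By the brightest probe of each gene 1 of the 29 tested member genes passed, again Kcnq1ot1, against 2.98% of all 11080 genes tested. The groups did not overlap for 13 probes that were higher and 4 that were lower, 34% together, against 31.9% of all tested probes. At an unadjusted p under 0.05 and 1.2-fold, 8 member probes were higher and 3 lower, and 24.9% of all tested probes met this. By the brightest probe 20 genes had a higher and 9 a lower mean, 21 of the 29 differed by less than 0.3 on the log2 scale, and the median difference was 0.11, beside 0.05 over all genes, of which 57.7% had a higher mean. The median was 0.16 over 16 genes listed as maternally expressed, 12 of them with a higher mean. It was 0.06 over 12 genes listed as paternally expressed, 8 of them with a higher mean. These labels come from the gene list, and imprinting in lung was not measured.

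**Figure D2:**
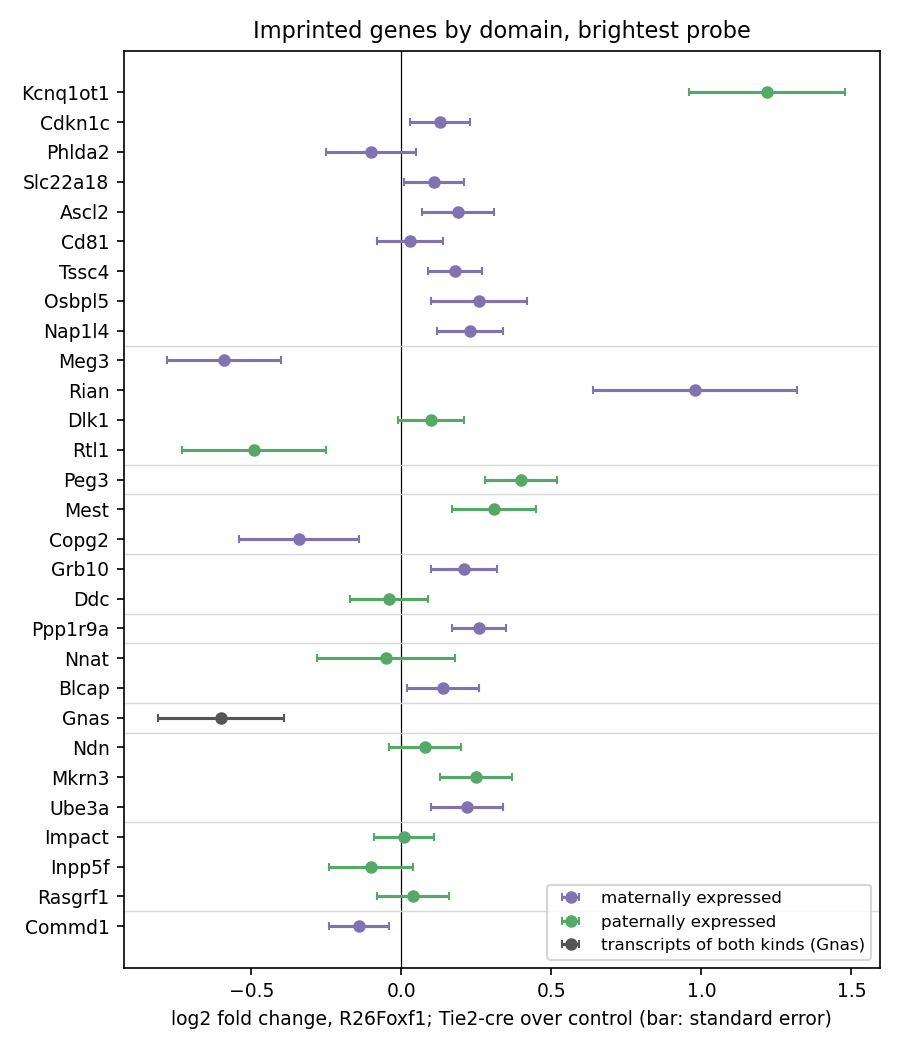
Log2 fold change of R26Foxf1; Tie2-cre over control lungs (horizontal axis, bars give the standard error of the fit, 3 lungs in each group) for the 29 tested genes (vertical axis), by the brightest probe, with grey lines between clusters. Colour gives the expressed allele listed for the gene, which was not measured in these lungs. Kcnq1ot1 at 1.22 and Rian at 0.98 lie farthest to the right, and Gnas at -0.60 and Meg3 at -0.59 farthest to the left.

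Of the tested Gnas probes 2 rose in R26Foxf1; Tie2-cre lungs, and 5 others had lower means there without passing the threshold. The Gnas locus (chromosome 2, 174284320 to 174346744) encodes the stimulatory G protein alpha subunit, and it makes several transcripts from separate promoters, some from the maternal allele, some from the paternal and the main one from both in most tissues. Of its 10 probes, 8 were tested, and which of these transcripts each probe reads was not worked out here. Probe ILMN_2483957 had 5.43, 5.77 and 4.79 in control and 7.25, 6.88 and 7.95 in R26Foxf1; Tie2-cre lungs. It rose by 2.03 (SE 0.32, 4.08-fold, limma adjusted p = 0.0332) in 3 of 3 lungs, was detected in 2 of the 3 control lungs, and has no transcript accession in the annotation. With the deposited log2-like values its difference was 0.63. Probe ILMN_1252926 had 9.34, 8.94 and 8.84 in control and 9.87, 9.88 and 10.37 in R26Foxf1; Tie2-cre lungs. It rose by 1.00 (SE 0.18, 2.00-fold, limma adjusted p = 0.0408), and its groups did not overlap.

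A further Gnas probe, ILMN_2580737, lay in the same direction without passing, at 7.53, 7.45 and 7.18 in control and 7.68, 7.97 and 8.02 in R26Foxf1; Tie2-cre lungs (difference 0.50, limma adjusted p = 0.0777). The other 5 tested probes had lower means in R26Foxf1; Tie2-cre lungs, and none passed. The brightest, ILMN_2632206, had 12.49, 11.83 and 12.58 in control and 11.88, 11.48 and 11.74 in R26Foxf1; Tie2-cre lungs, where control replicate 2 lay within the range of the other group. Its difference was -0.60 (SE 0.21, limma adjusted p = 0.128). ILMN_1223437 had 10.66, 10.09 and 10.85 in control and 9.79, 9.97 and 9.92 in R26Foxf1; Tie2-cre lungs, with a difference of -0.64 (SE 0.19, limma adjusted p = 0.0934) and no overlap. The remaining 3 differed by -0.42, -0.14 and -0.13. Of the calls, ILMN_2483957 remained past the threshold without control replicate 2 (limma adjusted p = 0.0239) and without R26Foxf1; Tie2-cre replicate 2 (0.0396), and ILMN_1252926 without control replicate 2 (0.0464). Neither passed without any other single lung, with adjusted p from 0.0588 to 0.128. Without control replicate 2 the brightest probe also passed, at -0.84 (limma adjusted p = 0.0278).

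**Figure D3:**
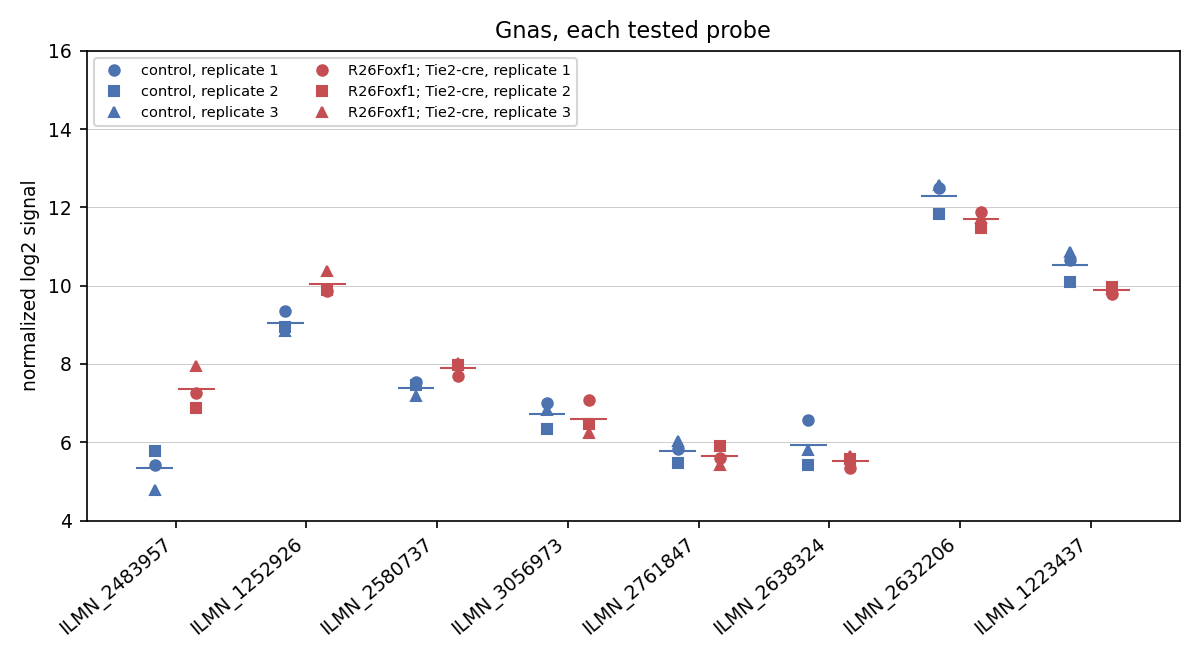
Normalized log2 signal (vertical axis) of each of the 8 tested Gnas probes (horizontal axis), ordered by fold change. Points are single lungs, with a marker shape for each replicate number, and bars are the means of 3 lungs. ILMN_2483957 and ILMN_1252926 on the left passed the threshold upward, with differences of 2.03 and 1.00, and the probes on the right had lower means in R26Foxf1; Tie2-cre lungs without passing.

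In the Dlk1-Meg3 cluster on chromosome 12 the tested noncoding RNAs of the maternal chromosome lay in opposite directions, and none of the 4 tested genes passed the threshold. Both noncoding RNAs read low, where the lowest detected signal of each array was 5.34 to 5.39. Meg3, the long noncoding RNA at the head of the maternal transcripts, had 6.36, 5.81 and 6.51 in control and 5.52, 5.79 and 5.60 in R26Foxf1; Tie2-cre lungs. Of its 3 probes only this 1 was detected in any lung. The groups did not overlap, by a margin set by control replicate 2, and the difference was -0.59 (SE 0.19, limma adjusted p = 0.103). Without control replicate 2 it was -0.80 and passed (limma adjusted p = 0.0250). Rian, which hosts small nucleolar RNAs downstream of Meg3, had 5.86, 5.83 and 4.52 in control and 6.57, 6.37 and 6.21 in R26Foxf1; Tie2-cre lungs. It was not detected in 1 of the 6 lungs. Its difference was 0.98 (SE 0.34, limma adjusted p = 0.126), and 0.54 without control replicate 3. With the deposited log2-like values the difference was -0.15 for Meg3 and 0.22 for Rian, and neither passed. Of the paternally expressed genes, Rtl1, a retrotransposon-derived gene needed by the placenta, had 6.55, 7.22 and 6.20 in control and 6.20, 6.01 and 6.29 in R26Foxf1; Tie2-cre lungs. Its groups overlapped (difference -0.49, SE 0.24, limma adjusted p = 0.245). Dlk1, a Notch-related membrane protein of fetal tissues, had 14.88, 14.66 and 14.68 in control and 14.95, 14.80 and 14.77 in R26Foxf1; Tie2-cre lungs. It differed by 0.10 (SE 0.11, limma adjusted p = 0.590), and by -0.02 on its other probe. The sign of the Dlk1 difference turned under cyclic loess normalization, to -0.12.

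**Figure D4:**
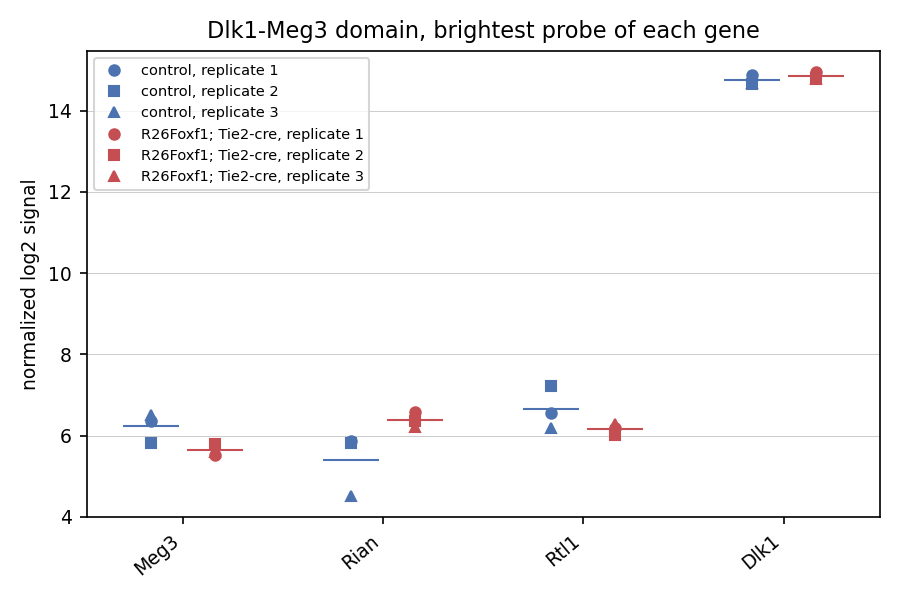
Normalized log2 signal (vertical axis) of the 4 tested genes of the Dlk1-Meg3 cluster (horizontal axis), by the brightest probe. Points are single lungs, with a marker shape for each replicate number, and bars are the means of 3 lungs. Meg3 and Rian, both expressed from the maternal chromosome, differ by -0.59 and 0.98, and neither passed the threshold. Both read low, where the lowest detected signal of each array was 5.34 to 5.39. Heights of different genes are not comparable.

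Of the fetal growth genes outside these clusters none passed the threshold. Peg3, a zinc finger gene expressed from the paternal allele, had 10.99, 11.02 and 10.81 in control and 11.32, 11.20 and 11.48 in R26Foxf1; Tie2-cre lungs. The groups did not overlap, and the difference was 0.40 (SE 0.12, limma adjusted p = 0.0876). On its other tested probe the difference was -0.03 (SE 0.18). Mest, a paternally expressed gene of fetal mesoderm, had 11.86, 11.65 and 12.13 in control and 12.20, 12.07 and 12.30 in R26Foxf1; Tie2-cre lungs, and its groups overlapped (difference 0.31, SE 0.14, limma adjusted p = 0.208). Its other tested probes differed by 0.23 and 0.02. Copg2, a coat protein gene that overlaps the end of Mest, had 8.09, 7.50 and 7.89 in control and 7.67, 7.12 and 7.66 in R26Foxf1; Tie2-cre lungs (difference -0.34, SE 0.20, limma adjusted p = 0.321).

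Grb10, an adaptor that dampens insulin receptor signalling, had 13.58, 13.61 and 13.41 in control and 13.83, 13.58 and 13.81 in R26Foxf1; Tie2-cre lungs. The groups overlapped, with a difference of 0.21 (SE 0.11, limma adjusted p = 0.290), and of 0.08 on the other tested probe. Its neighbour Ddc, the decarboxylase that makes dopamine and serotonin, differed by -0.04 and -0.25 on its tested probes. Nnat, a small membrane protein gene first found in brain, had 9.68, 9.19 and 9.60 in control and 9.95, 9.15 and 9.23 in R26Foxf1; Tie2-cre lungs. Its sign differed between its tested probes, at -0.05, 0.13 and 0.29, and none passed. Blcap, the gene in which Nnat lies, differed by 0.14. Ppp1r9a, an actin-binding protein gene beside the undetected Peg10 and Sgce, differed by 0.26 (SE 0.09, limma adjusted p = 0.126) and 0.29 on its probes, both without overlap of the groups.

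In the Snrpn region of chromosome 7, Ndn, a paternally expressed MAGE family gene, had 11.43, 11.77 and 11.56 in control and 11.69, 11.76 and 11.57 in R26Foxf1; Tie2-cre lungs. The difference was 0.08 (SE 0.12, limma adjusted p = 0.693). Mkrn3, a ring finger gene, differed by 0.25 with no overlap (limma adjusted p = 0.249). Ube3a, a ubiquitin ligase that is imprinted in neurons, had 7.27, 7.40 and 7.35 in control and 7.76, 7.55 and 7.36 in R26Foxf1; Tie2-cre lungs on its brighter tested probe (difference 0.22, SE 0.12, limma adjusted p = 0.304), and -0.13 on the other. Snurf, which shares a bicistronic RNA with Snrpn and is not itself among the 45 genes, had 3 tested probes. ILMN_2741277 had 9.60, 9.35 and 9.62 in control and 8.67, 8.90 and 8.75 in R26Foxf1; Tie2-cre lungs, and it fell by 0.75 (SE 0.12, limma adjusted p = 0.0327) in 3 of 3 lungs. The brightest Snurf probe differed by -0.03 (limma adjusted p = 0.913) and the third by 0.09. The fall on ILMN_2741277 passed the threshold with control replicate 2 or R26Foxf1; Tie2-cre replicate 2 left out. With each of the other 4 lungs left out it did not, with limma adjusted p between 0.0842 and 0.127. It was also lost with no filter on dim probes (limma adjusted p = 0.0597), and with the replicate block and by the methods' t-test.

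Among the solitary genes, Impact, a translational regulator, had 10.42, 10.43 and 10.38 in control and 10.41, 10.53 and 10.32 in R26Foxf1; Tie2-cre lungs on its brightest probe. The difference was 0.01 (SE 0.10), and 0.37 (SE 0.16, limma adjusted p = 0.189) on its other probe. Inpp5f, an inositol phosphatase gene, differed by -0.10, and Rasgrf1, a Ras exchange factor gene, by 0.04 and 0.01. Commd1, a copper homeostasis gene, differed by -0.14 and -0.06. Igf2, the paternally expressed growth factor beside H19 and outside the set, had 14.38, 14.46 and 14.34 in control and 14.35, 14.54 and 14.66 in R26Foxf1; Tie2-cre lungs (difference 0.12, SE 0.11, limma adjusted p = 0.513).

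Genes that set, keep or read imprints were given by a list of 30, of which 21 were tested. By the brightest probe 14 had a higher and 7 a lower mean in R26Foxf1; Tie2-cre lungs, the median was 0.18, and 1 passed the threshold. Over all tested genes 57.7% had a higher mean, the median was 0.05, and 2.98% passed. That gene was Zfp445, a zinc finger protein that keeps imprints methylated in the mouse embryo. It had 7.56, 7.53 and 7.61 in control and 8.18, 8.01 and 8.36 in R26Foxf1; Tie2-cre lungs and rose by 0.61 (SE 0.12, 1.53-fold, limma adjusted p = 0.0413) in 3 of 3 lungs, and it passed with control replicate 2 or R26Foxf1; Tie2-cre replicate 2 left out but with no other single lung left out. The list's difference of largest size by the brightest probe was that of Tet1, an enzyme that oxidizes methylated cytosine, at 0.64 (limma adjusted p = 0.121).

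Of 48 other imprinted genes and neighbours, 22 were tested, 11 with a higher and 11 with a lower mean, and none passed by the brightest probe in limma. At an unadjusted p under 0.05 and 1.2-fold 4 of the 22 did. Of all tested probes 24.9% met this, which is a share of probes and not of genes by the brightest probe. By the brightest probe the largest differences were those of Qpct, which forms pyroglutamate at protein ends, at -0.82 (limma adjusted p = 0.0531), and of the paraoxonase gene Pon1 at -0.76 (limma adjusted p = 0.198). Probes other than the brightest passed for Trappc9, at 0.93 (limma adjusted p = 0.0370), and Snurf, above. The brightest Trappc9 probe differed by 0.25 (limma adjusted p = 0.341), and its groups overlapped. A Tnfrsf22 probe detected in all 3 control lungs and in no R26Foxf1; Tie2-cre lung also passed (limma adjusted p = 0.0483); it was at least 1.07-fold lower in the latter, where it was not above background, and it entered the test only through the control lungs. Of 18 further regulatory noncoding RNAs, several of them kept in the nucleus as Kcnq1ot1 is, 9 were tested, and none passed by the brightest probe in limma, with a median of -0.14. By the brightest probe the differences of largest size were those of Xist at -2.33 (limma adjusted p = 0.483) and Miat at -0.27 (limma adjusted p = 0.261).

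The lungs differed in ways that touch these values. Xist, the RNA of the inactive X chromosome, was 11.87 to 12.69 in 5 lungs and 4.41 in R26Foxf1; Tie2-cre replicate 3, the lung with the highest Kcnq1ot1 signal and the highest signal of the Gnas probes past the threshold. Mean log2 signal of 13 annotated thymocyte and lymphocyte genes was 7.03, 7.70 and 5.46 in control and 5.45 to 5.49 in R26Foxf1; Tie2-cre lungs, with 9, 10 and 2 of them detected in the control lungs and 2 in each other lung. The mean over 14 skeletal muscle genes was 7.98 to 9.76 in control and 6.35 to 7.39 in R26Foxf1; Tie2-cre lungs. All 12 tested genes of that list had a lower mean in the latter, with a median of -2.06. Myog, Car3 and Klhl40 passed downward. Their probes that passed were detected in all 3 control lungs and in no R26Foxf1; Tie2-cre lung. They entered the test only through the control lungs and were at least 1.31-, 1.82- and 1.91-fold lower. The mean over 8 heart muscle genes overlapped between the groups, from 7.81 to 11.11 over all 6 lungs. The mean over 9 neuroendocrine and neural genes was 6.29 to 6.36 in control and 5.86 to 6.00 in R26Foxf1; Tie2-cre lungs. Of that list 1 gene passed, Gal, which encodes a neuropeptide, at 7.56, 7.63 and 7.64 in control and 5.58, 5.18 and 5.24 in R26Foxf1; Tie2-cre lungs. Gal was above background in only 1 of the 3 R26Foxf1; Tie2-cre lungs. The median over the 6 tested genes of the list was -0.25. The mean over 8 red cell genes was 9.93 to 10.15 in control and 10.49 to 10.57 in R26Foxf1; Tie2-cre lungs. The 3 embryonic globin genes Hbb-bh1, Hba-x and Hbb-y passed upward. Of these, Hbb-bh1 was detected in no control lung and entered the test only through the R26Foxf1; Tie2-cre lungs, where it was at least 3.14-fold higher. The adult globin genes differed by 0.05 (Hba-a1) and -0.03 (Hbb-bs), and the median over the 7 tested red cell genes was 0.05. Control replicate 3 had the lowest control signal of Kcnq1ot1 and of both Gnas probes that rose. Its lymphocyte genes were at the level of the R26Foxf1; Tie2-cre lungs, and its skeletal muscle genes, at 7.98, were above those lungs. This is 1 lung. The part of the lymphocyte, muscle, neural and red cell RNAs in the differences of the imprinted genes was not tested. Of 13 lung epithelial markers 12 were detected in all 6 lungs, and none of the tested epithelial, endothelial, mesenchymal or cell cycle genes passed in limma by the brightest probe. Of 8 endothelial markers 6 were tested, as Kdr and Erg were detected in no lung on any of their probes. Foxf1 was 10.68, 10.15 and 10.77 in control and 10.93, 10.77 and 10.83 in R26Foxf1; Tie2-cre lungs, a difference of 0.31 (SE 0.17, limma adjusted p = 0.285). The groups met at 10.77, and whether the probe reads the ROSA26 copy was not tested.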

How the data were processed

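RNA of 6 lungs, 3 in each group, was labelled and hybridized to Illumina mouse WG-6 v2.0 arrays. The authors deposited a background-subtracted signal intensity per probe, with 25.5% to 28.5% of values per lung below 0, and a detection p-value set by negative control probes. The authors deposited a second table on a log2-like scale, made with the lumi package (variance-stabilizing transformation, then robust spline normalization), used here as an alternative.

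The intensities were processed with limma 3.58.1 in R 4.3.3. Background was corrected by neqc, which estimated the negative control signal through the detection p-values; the offset was 16, and log2 values were quantile normalized. Each lung had 19831 to 20043 probes with a detection p under 0.01. The number of arrays limits the precision: p-values measure the spread between 3 lungs in a group. Probes detected on at least 3 arrays were fitted with lmFit and eBayes, with no covariate, and adjusted by the Benjamini-Hochberg method. The steps were tested on simulated data. The t-test that the methods name was an alternative; the thresholds are theirs.

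A gene was represented by its tested probe with the highest mean signal. Symbols came from the platform annotation, updated through gene IDs with RefSeq (GRCm38.p6): 34885 probes had 1 symbol, 18 several and 10378 none, and 34807 matched by gene ID. The members, the lists and the rule for named genes were chosen with earlier results of these data known. Under that rule every member is accounted for, with per-lung values for members past the threshold, the best known genes of each cluster, Igf2 and Kcnq1, and, in the other lists, genes past the threshold or those with the largest change. Tet1, Trappc9, Tnfrsf22, Snurf, Rtl1 and, among markers, Gal, the globin genes, Myog, Car3 and Klhl40 were singled out after their values were seen.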

Additional observations from a re-analysis of the deposited data

Results flagged for a closer look

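Of the member probes that were not tested, 4 were detected in R26Foxf1; Tie2-cre lungs and in no control lung. How many probes of the whole array met this was not counted. A Grb10 probe, ILMN_1257352, was detected in 2 R26Foxf1; Tie2-cre lungs, with 5.98, 5.32 and 6.11 there (mean 5.80) against 5.00, 5.03 and 4.69 in control lungs. Its R26Foxf1; Tie2-cre mean was 1.37-fold above control lungs set at the lowest detected signal of their array. That mean includes the lung at 5.32, where the probe was not detected, so the value is not a lower bound. An Ascl2 probe, ILMN_2750349 (mean 5.30 in R26Foxf1; Tie2-cre lungs), a Ddc probe, ILMN_1229396 (mean 4.94), and a Ube3a probe, ILMN_2452619 (mean 5.30), were each detected in 1 R26Foxf1; Tie2-cre lung. For the Ascl2, Ddc and Ube3a probes the same comparison showed no rise, at -0.04, -0.41 and -0.04 on the log2 scale.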

How the results depend on the processing

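The counts of member probes and member genes past the threshold, 3 and 1, changed with most choices. The rise of Kcnq1ot1 and of both Gnas probes kept its direction under every alternative that fitted them, but this says little. The groups did not overlap on these probes, and several alternatives changed only the filter or the threshold. Kcnq1ot1 itself did not pass without normexp background correction, with no filter on dim probes or by the methods' t-test. Nor did it pass with the replicate number as a block or by the mean of a gene's tested probes. With single lungs left out it passed only without control replicate 2. Member probes and member genes by the brightest probe numbered 5 and 3 with the deposited log2-like values and 5 and 3 with median scaling (both adding Peg3 and Ppp1r9a), 2 and 0 without normexp background correction, 4 and 2 with a variance trend and robust fit (adding Peg3), 0 and 0 with no filter on dim probes, 0 and 0 by the methods' t-test on the deposited values, and 11 and 5 at an unadjusted p. Over the whole array the calls numbered 908 in the reported setting, 1051 with the deposited values, 1552 with median scaling, 650 without normexp, 1860 with a variance trend, 58 with no filter, 0 by the t-test and 5009 at an unadjusted p. By the mean of a gene's tested probes 0 member genes passed. The member median of 0.11 became 0.08 with the deposited values, 0.08 in the t-test on them, 0.20 with median scaling (where the median of all genes was 0.17), 0.07 with cyclic loess and 0.04 with no filter. The machinery count of 1 became 0 with no filter, 0 by the t-test, 0 by the mean of probes and 4 at an unadjusted p. The count of 0 other imprinted genes became 1 with detection on all 6 arrays (Qpct), 1 with a variance trend and 4 at an unadjusted p. Over all probes 53.7% of calls were higher in R26Foxf1; Tie2-cre lungs, 72.2% with median scaling and 39.3% with cyclic loess. Small differences turned sign: Nnat to 0.11 with median scaling, and Dlk1 to -0.12, Impact to -0.01 and Igf2 to -0.02 with cyclic loess. The causes were not tested.

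With single lungs left out, member probes ranged from 0 to 6, member genes from 0 to 3, the member median from 0.10 to 0.14, the machinery count from 0 to 3 and other imprinted genes from 0 to 2, the highest counts being those without control replicate 2, where 1703 of all probes passed, and between 2 and 358 passed without each other lung. The difference of Nnat ranged from -0.30 to 0.10, that of Impact from -0.05 to 0.06 and that of Phlda2 from -0.21 to 0.02. Replicate numbers were shared by the groups, but deviations of same-numbered lungs correlated at 0.293, -0.0355 and -0.0269, so the numbers were not taken to pair lungs. With the replicate number as a block 0 member probes, 0 member genes and 0 machinery genes passed, and 46 of all probes. The Snurf call was lost with the block (limma adjusted p = 0.0927) and by the t-test (adjusted 0.126). Counting the Snurf probes as Snrpn, chosen after seeing the data, gave 4 member probes. A slide block was not run, since no slide was named in the columns used.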
